A study of Rattus norvegicus with 10 samples.

Results

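The genes described here are the ligands, receptors and receptor phosphatase of the VEGF and angiopoietin-Tie pathways in rat cerebral cortex. They were chosen by symbol as a list of 10 genes among the 32623 genes of the expression table, each symbol had 1 entry, and all 10 passed the filter on low values that left 15169 genes for testing. The list holds 4 ligands (Vegfa, Vegfb, Angpt1 and Angpt2), 5 receptors (Flt1, Kdr, Flt4, Tie1 and Tek) and 1 receptor phosphatase (Ptprb). The samples were cortex from 5 adult male Sprague-Dawley rats given electroacupuncture (EA) and from 5 control rats, likewise adult male Sprague-Dawley, with poly(A) RNA sequenced from each. EA rats had needles at the Baihui and Shuigou acupuncture points, stimulated at 3 mA and 2/100 Hz for 40 min, and control rats were held under the same restraint for 40 min. The rats of both groups were unmodified and were perfused with saline under pentobarbital before the cortex was taken, and the study used EA as a way to open the blood-brain barrier. Rats were housed several to a cage, and how cages, perfusion days and sequencing runs fell across the groups was not given in the sources used here, so these cannot be told apart from EA.

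VEGF ligands are secreted proteins that bind receptor tyrosine kinases on endothelial cells, the cells that line blood vessels, and drive their growth, survival and permeability. In the brain, astrocytes and neurons make much of the Vegfa, while the receptors sit mainly on the vessel wall. Angiopoietins act through the receptor Tek, with Tie1 as its partner, and the balance of Angpt1 against Angpt2 is known for setting how quiescent and how tight a vessel is.

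The total count was 47843590 to 60941939 in the EA libraries and 55223193 to 61707722 in the control libraries, and a member had between 129 (Angpt1 and Angpt2) and 12867 (Vegfa) counts in a library. The EA 2 and EA 5 libraries stood apart. Genes of the misc_RNA biotype summed to 641.8 and 952.3 FPKM there, against 86.74 to 93.55 FPKM in the other EA libraries and 75.81 to 97.15 FPKM in the control libraries, so the members' fold changes without these libraries are given below as well. Over all genes, edgeR's quasi-likelihood test called 3 of 15169 (0.0198%), all 3 higher in EA, when a Benjamini-Hochberg adjusted p below 0.05 was required together with more than a 1.2-fold difference, and 1085 (7.15%) were lower in EA and 1000 (6.59%) higher at an unadjusted p under 0.05. The same thresholds with DESeq2 gave 168 calls (1.11%), of which 77 (0.508%) were higher in EA and 91 (0.6%) lower. The median log2 fold change of all genes tested was -0.0018, and 50.5% of them lay below 0.

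The start regions of 4 members are shown because the comparison sets ligands against receptors, and the factor family most closely tied to endothelial genes, the Ets factors, binds sites with the core GGAA. Of the 10 members, 6 were found in the RefSeq promoter table (rat GRCr8), which gives 250 bases before and 50 bases after each start. Angpt1, Angpt2, Tek and Ptprb were not matched. Each sequence is written 5′ to 3′ on the strand of its gene, and capitals mark GGAA or its reverse complement TTCC. The Tie1 region (chr5:137304932-137305231, minus strand) belongs to the member with the lowest p-value, Flt1 (chr12:12333180-12333479, plus strand) to the most abundant receptor, Kdr (chr14:32571813-32572112, plus strand) to the main signalling receptor, and Vegfa (chr9:22452604-22452903, plus strand; the first of its entries) to the most abundant ligand.
Tie1: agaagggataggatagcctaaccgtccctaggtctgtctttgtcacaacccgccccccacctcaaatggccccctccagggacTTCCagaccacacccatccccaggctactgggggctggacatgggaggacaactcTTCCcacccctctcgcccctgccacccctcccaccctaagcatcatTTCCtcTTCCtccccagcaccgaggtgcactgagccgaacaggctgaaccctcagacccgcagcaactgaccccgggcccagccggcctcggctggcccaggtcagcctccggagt
Flt1: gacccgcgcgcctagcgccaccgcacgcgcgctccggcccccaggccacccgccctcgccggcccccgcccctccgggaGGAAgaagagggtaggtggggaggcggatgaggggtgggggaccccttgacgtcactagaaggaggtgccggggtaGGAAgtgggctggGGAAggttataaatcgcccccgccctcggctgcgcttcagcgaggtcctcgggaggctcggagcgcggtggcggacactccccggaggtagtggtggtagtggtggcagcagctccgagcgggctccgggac
Kdr: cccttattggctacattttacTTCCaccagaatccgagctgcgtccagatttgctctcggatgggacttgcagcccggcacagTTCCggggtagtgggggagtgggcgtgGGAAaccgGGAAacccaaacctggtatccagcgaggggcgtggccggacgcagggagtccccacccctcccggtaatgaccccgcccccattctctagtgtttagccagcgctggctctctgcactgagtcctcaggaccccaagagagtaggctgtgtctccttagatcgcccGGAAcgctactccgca
Vegfa: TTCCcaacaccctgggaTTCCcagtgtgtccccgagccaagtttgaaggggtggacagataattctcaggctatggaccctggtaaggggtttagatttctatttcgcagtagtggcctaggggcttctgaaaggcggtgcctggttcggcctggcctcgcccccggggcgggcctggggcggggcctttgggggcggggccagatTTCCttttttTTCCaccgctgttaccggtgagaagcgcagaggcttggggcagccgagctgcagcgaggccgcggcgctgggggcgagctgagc
The core occurred 4 times in the Tie1 region, 3 times in Flt1, 5 times in Kdr and 4 times in Vegfa, counting both strands. It is a very common word: 95.8% of 33469 promoters of this length held it, with a median of 3 matches. The longer form CCGGAA, held by 15.0% of promoters, was found in Kdr alone among these 4, with 2 matches that include GGAA matches already counted. Flt1 was the only one of the 4 with the cyclic AMP response element TGACGTCA (1.83% of promoters) or the TATA box TATAAA (14.2%). The GC box GGGCGG, present in 33.1% of promoters, occurred 3 times in Vegfa, 3 times in Flt1 and 1 time each in Tie1 and Kdr. The hypoxia response core ACGTG (19.3%) was found in none of the 4 windows, and its variant GCGTG (29.7%) had 1 match in Flt1 and 2 in Kdr. These are matches of letters in a window of 300 bases, and no binding was measured.

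Among the 5 receptors, Tie1 separated the EA rats from the control rats, and for Flt1 and the ligand Vegfb 4 of the 5 EA libraries lay below every control library. For each of the other 7 members at most 2 EA libraries lay below every control library. Of all genes tested, 2.25% had every EA library below every control library in FPKM. The share with 4 of 5 EA libraries below was not computed, so the counts for Flt1 and Vegfb have no background beside them. With edgeR none of the 10 members passed the adjusted threshold, with DESeq2 only Tie1 did, and with limma on FPKM none did. At an unadjusted p under 0.05, 2 members were lower in EA (Tie1 and Flt1), beside 7.15% of all genes tested, and 0 were higher, beside 6.59%. The log2 fold change lay below 0 for 9 of 10 members, beside 50.5% of all genes.

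Tie1, an endothelial receptor with no well-established ligand of its own that modulates signalling through Tek, lies on chromosome 5 (Rnor_6.0, 137294544 to 137321121, minus strand). It stood at 5.33, 4.56, 6.11, 5.62 and 4.72 FPKM in the EA libraries, against 8.15, 6.79, 7.23, 6.67 and 8.10 FPKM in the control libraries. Every EA library lay below every control library, as 2.25% of all genes tested did in FPKM, where 0.85% had every EA library above and 3.11% did not overlap in either direction. The Tie1 groups were apart on TMM-scaled CPM too, a scale on which 1.62% of genes lay below, 1.42% above and 3.04% did not overlap. Genes lower in EA were 72.61% of the non-overlapping genes in FPKM and 53.15% in CPM. The mean was 5.27 ± 0.640 FPKM in EA and 7.39 ± 0.705 FPKM in control (SD, n = 5 each). The log2 fold change from the counts was -0.46 (standard error 0.10, 95% interval -0.69 to -0.24), with an unadjusted edgeR p of 6.53e-04 and an edgeR adjusted p of 0.172. That p ranked 56 of 15169. DESeq2 gave a log2 fold change of -0.46 and an adjusted p of 0.00408, which is past the threshold. Over 18 edgeR settings (other scalings and filters, and libraries left out), the log2 fold change ranged between -0.53 and -0.34 and the adjusted p between 0.0892 and 0.467. The value closest to 0 came without EA 2 and EA 5, with an unadjusted edgeR p of 0.00665. The study itself had named Tie1 among the changed angiogenesis genes of these same libraries, so its direction is not independent evidence. The study also listed Vegfa, Vegfb, Angpt1 and Angpt2 among genes related to the barrier, and counted none of them as changed.

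Flt1, which binds both Vegfa and Vegfb with high affinity and can be made as a soluble decoy, lies on chromosome 12 (Rnor_6.0, 9034308 to 9205905, plus strand). Its level was 18.1, 18.7, 20.7, 16.3 and 15.8 FPKM in EA rats, against 22.7, 20, 20.4, 21.6 and 21.2 FPKM in control rats. EA 3 was the EA library that lay inside the control range, and the other 4 lay below every control library. Mean levels were 17.9 ± 1.97 FPKM in EA and 21.2 ± 1.06 FPKM in control (SD, n = 5 each), a log2 fold change of -0.22 (standard error 0.08, 95% interval -0.40 to -0.04). The edgeR p was 0.0221 unadjusted and 0.288 adjusted, and the DESeq2 adjusted p was 0.164. The unadjusted edgeR p was 0.0572 without EA 4, 0.0602 without EA 5, 0.0553 without control 1 and 0.0869 without EA 2 and EA 5. The gene table sums all transcripts of a gene, so the membrane form and the soluble form of Flt1 were not separated.

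Kdr, the receptor that carries most of the growth and permeability signal of Vegfa, lies on chromosome 14 (Rnor_6.0, 34727623 to 34787183, plus strand). It had 2.73, 1.86, 1.39, 2.47 and 3.50 FPKM in EA libraries, against 3.63, 2.54, 1.97, 2.62 and 4.23 FPKM in control libraries. The spread within each group was wide, and 2 EA libraries lay below every control library. The log2 fold change was -0.31 (standard error 0.25, 95% interval -0.85 to 0.22, edgeR adjusted p = 0.620). Its estimate was further from 0 than that of Flt1, with an error of about the same size as the estimate itself. Each EA library lay below the control library of the same replicate number. With that number as a block, the edgeR p for Kdr was 0.00416 unadjusted and 0.244 adjusted. Among 18 edgeR settings this was the only fit with an unadjusted p under 0.05 for Kdr, and the largest p was 0.538. The share of all genes with such an order, or under 0.05 in the fit with the block, was not computed. Whether the numbers pair the libraries is not given.

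Tek, the receptor of the angiopoietins, overlapped almost fully between the groups. Its levels were 8.51, 8.19, 10.6, 9.46 and 10.8 FPKM in EA rats, against 10.7, 8.12, 9.96, 10.9 and 11.1 FPKM in control rats, with a log2 fold change of -0.07 (standard error 0.10, 95% interval -0.30 to 0.16, edgeR adjusted p = 0.817). The lowest value belonged to a control rat and 4 of the 5 EA libraries lay below the control median. Tek lies on chromosome 5 (Rnor_6.0, 113725717 to 113852799, plus strand), the chromosome that also holds Tie1.

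Flt4, the receptor of Vegfc and Vegfd best known from lymphatic vessels, was the lowest receptor. It lies on chromosome 10 (Rnor_6.0, 35078726 to 35121599, plus strand) and had 1.43, 2.26, 1.48, 1.37 and 0.891 FPKM in EA libraries, against 1.15, 1.70, 2.32, 1.84 and 1.41 FPKM in control libraries. The highest values of the groups were alike and the log2 fold change was -0.15 (standard error 0.23, 95% interval -0.66 to 0.36, edgeR adjusted p = 0.828). The lymphatic markers Prox1, Lyve1, Pdpn and Ccl21 summed to 14.3 to 21.42 FPKM in EA libraries and 15.31 to 17.26 FPKM in control libraries, and of this Ccl21, which defines lymphatic endothelium more narrowly, averaged 0.257 FPKM in EA and 0.0411 FPKM in control.

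**Figure D1:**
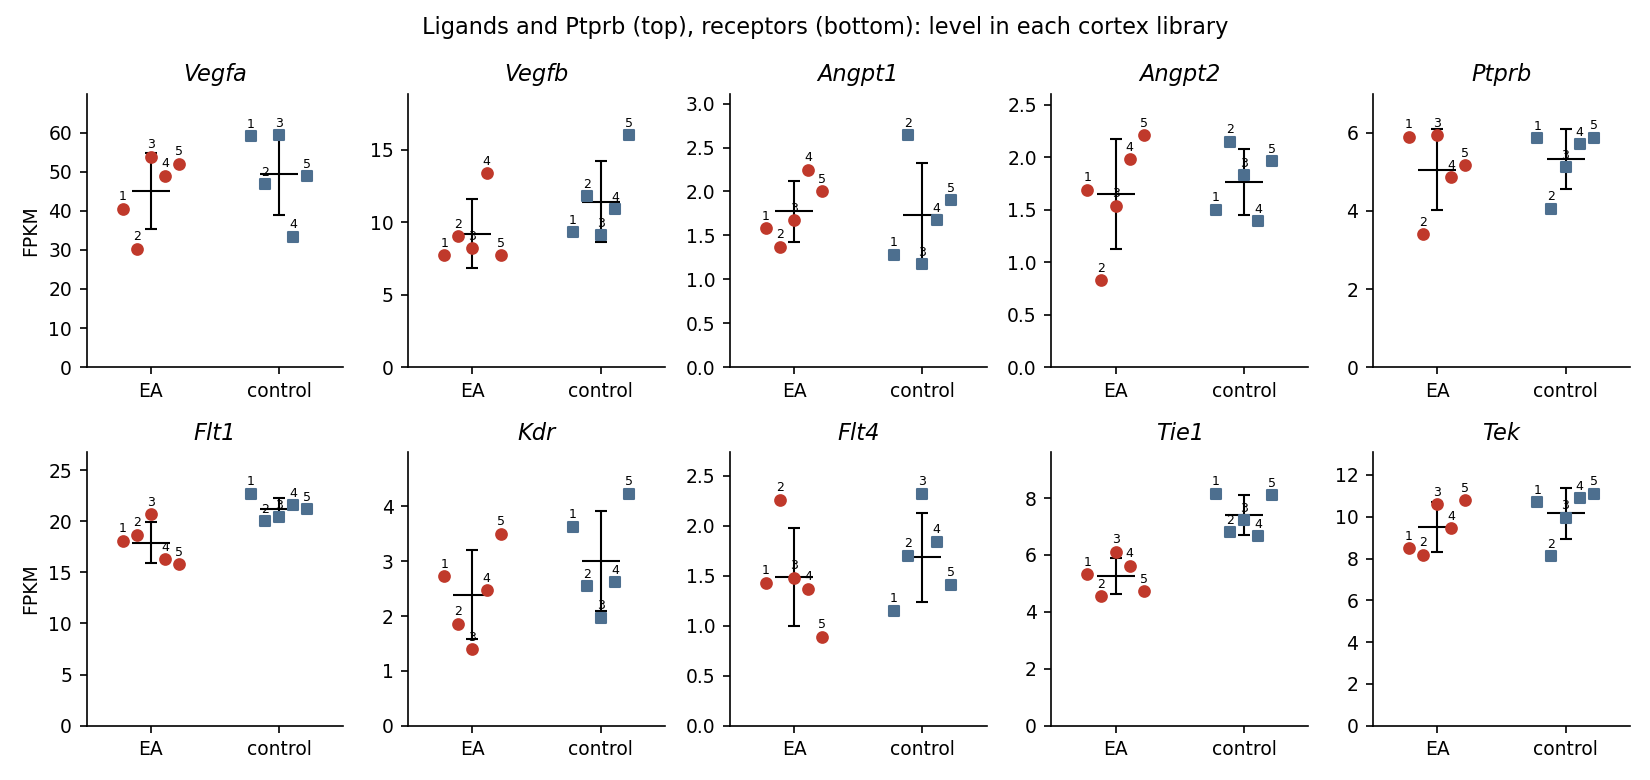
Level of each member in FPKM (vertical axis, its own scale per panel) in the 5 EA and the 5 control libraries. Points are libraries marked with their replicate number, and bars are the mean with the SD. The Tie1 groups do not overlap, with EA at 4.56 to 6.11 FPKM and control at 6.67 to 8.15 FPKM, while the other 9 members overlap.

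Vegfa, the main angiogenic and permeability ligand, was the most abundant member. It lies on chromosome 9 (Rnor_6.0, 17340341 to 17355681, plus strand) and stood at 40.5, 30.3, 53.8, 49.0 and 52.0 FPKM in EA rats, against 59.0, 46.8, 59.3, 33.4 and 48.8 FPKM in control rats. EA 2 and control 4 were the low libraries of their groups, and the ranges overlapped over most of their length. The mean was 45.1 ± 9.73 FPKM in EA and 49.5 ± 10.7 FPKM in control (SD, n = 5 each), with a log2 fold change of -0.11 (standard error 0.18, 95% interval -0.51 to 0.28, edgeR adjusted p = 0.833).

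Vegfb, a ligand of Flt1 that does not bind Kdr, lies on chromosome 1 (Rnor_6.0, 222239022 to 222242644, minus strand). It had 7.71, 9.02, 8.21, 13.4 and 7.72 FPKM in EA libraries, against 9.33, 11.8, 9.10, 10.9 and 16.0 FPKM in control libraries. EA 4 lay above 4 of the 5 control libraries and the other 4 EA libraries lay below every control library. The log2 fold change was -0.29 (standard error 0.18, 95% interval -0.69 to 0.11), with an edgeR p of 0.137 unadjusted and 0.513 adjusted. Without EA 4 it was -0.46 with an unadjusted edgeR p of 0.0134, and without control 5 it was -0.13 with an unadjusted edgeR p of 0.421. Of 18 edgeR settings, only the fit without EA 4 gave Vegfb an unadjusted p under 0.05. The nearest gene, Dnajc4, is annotated 214 bases from Vegfb on the same strand and had a log2 fold change of -0.28 (edgeR adjusted p = 0.221). Whether reads past a gene end were counted to the neighbour was not tested.

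Angpt1, the ligand that activates Tek and is made by perivascular cells, was the member with a fold change above 0. It lies on chromosome 7 (Rnor_6.0, 81342280 to 81592206, minus strand) and had 1.58, 1.37, 1.67, 2.25 and 2.00 FPKM in EA rats, against 1.28, 2.64, 1.17, 1.67 and 1.9 FPKM in control rats. The lowest and the highest value both belonged to control rats, and the log2 fold change was 0.06 (standard error 0.22, 95% interval -0.42 to 0.54, edgeR adjusted p = 0.940).

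Angpt2, which endothelial cells store and release and which often opposes Angpt1 at Tek, lies on chromosome 16 (Rnor_6.0, 75966352 to 76016195, plus strand). Its values were 1.69, 0.828, 1.54, 1.98 and 2.21 FPKM in EA rats, against 1.5, 2.15, 1.83, 1.39 and 1.96 FPKM in control rats. EA 2 was the lowest of the 10 libraries and EA 5 the highest, so the EA group held both ends of the range. The log2 fold change was -0.08 (standard error 0.23, 95% interval -0.58 to 0.42, edgeR adjusted p = 0.919). Angpt2 overlaps Mcph1, a gene of the opposite strand with a mean of 1.44 FPKM and a log2 fold change of 0.05. The library preparation marked the second strand with dUTP, but whether the counts used the strand is not stated. How far reads of this pair were kept apart was not tested.

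Ptprb, the vascular endothelial phosphatase that removes phosphate from Tek and restrains Kdr, lies on chromosome 7 (Rnor_6.0, 59326518 to 59425718, plus strand). It had 5.90, 3.41, 5.94, 4.87 and 5.17 FPKM in EA rats, against 5.86, 4.06, 5.13, 5.71 and 5.88 FPKM in control rats. The groups overlapped, with EA 2 lowest of all, and the log2 fold change was -0.05 (standard error 0.15, 95% interval -0.38 to 0.28, edgeR adjusted p = 0.914).

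**Figure D2:**
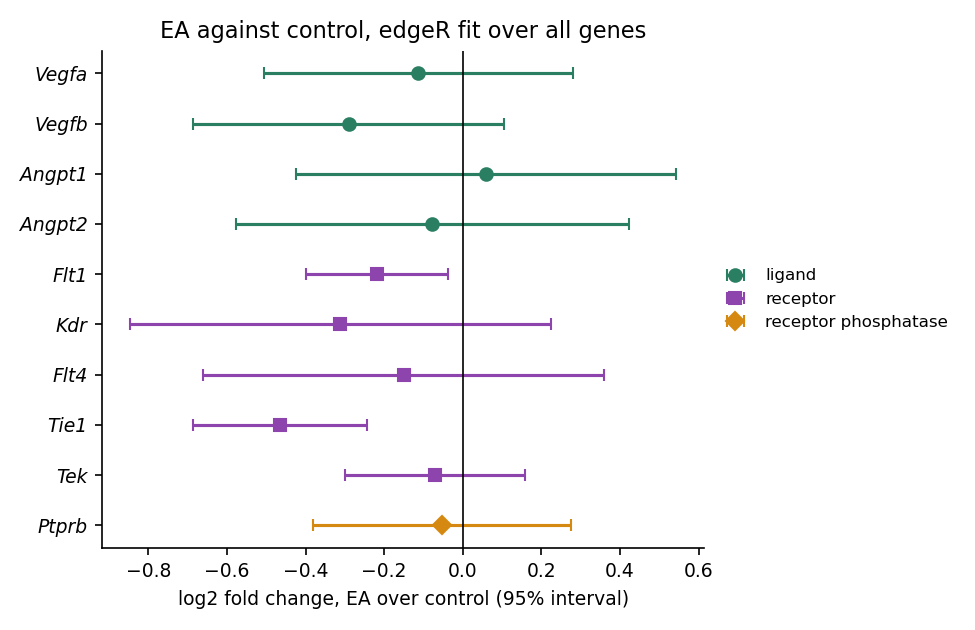
Log2 fold change of each member, EA over control (horizontal axis), with its 95% interval, coloured by ligand, receptor and receptor phosphatase. The intervals of Tie1 (-0.69 to -0.24) and Flt1 (-0.40 to -0.04) lie below 0 and the other 8 include 0.

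Without EA 2 and EA 5 the log2 fold change was -0.34 for Tie1, -0.17 for Flt1, -0.42 for Kdr, -0.20 for Flt4 and -0.06 for Tek among the receptors. It was -0.02 for Vegfa, -0.20 for Vegfb, 0.12 for Angpt1 and 0.0081 for Angpt2 among the ligands, and 0.10 for Ptprb. The receptors and the ligands Vegfa, Vegfb and Angpt1 thus kept their sign in these 8 libraries, and Angpt2 and Ptprb did not.

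On the FPKM scale, which divides by transcript length, the order of the mean levels over the 10 libraries was Vegfa (47.3), Flt1 (19.6), Vegfb (10.3), Tek (9.83), Tie1 (6.33), Ptprb (5.19), Kdr (2.69), Angpt1 (1.75), Angpt2 (1.71) and Flt4 (1.59). Vegfa stood above Flt1, Flt1 above Vegfb, Tek above Tie1 and Ptprb above Kdr in all 10 libraries. Vegfb was above Tek in 4 of 10 libraries and Angpt1 above Angpt2 in 5 of 10, so these neighbours did not differ beyond their spread. Tie1 lay above Ptprb in 8 of 10 libraries, in 3 of 5 EA libraries and in 5 of 5 control libraries.

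Set side by side, the median log2 fold change was -0.22 for the 5 receptors (5 of 5 below 0) and -0.10 for the 4 ligands (3 of 4 below 0), and -0.13 for all 10 members. The difference between the medians, receptors minus ligands, was -0.12. It lay between -0.28 and 0.01 when each library was left out in turn, it was 0.01 without EA 5, and it was -0.20 without EA 2 and EA 5. Within a library, the median log2 CPM of the receptors minus that of the ligands had an SD of 0.27 between libraries of a group. That SD describes levels in single libraries and is not the error of the -0.12. The FPKM of the 5 receptors summed to 36.6 ± 2.10 in EA and 43.4 ± 3.02 in control (SD, n = 5 each), and Flt1 made up the largest part of it. In 4 EA libraries that sum lay below every control library. The 4 ligands summed to 57.7 ± 10.9 FPKM in EA and 64.4 ± 10.1 FPKM in control, with wide overlap. The receptor sum overlapped less between the groups than the ligand sum, and the difference between receptors and ligands itself was not tested.

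Within each library, no ratio of FPKM separated the groups fully, and Tie1 over Tek had the most EA libraries below every control library. Tie1 over Tek was 0.558 ± 0.0726 (0.436 to 0.626) in EA and 0.733 ± 0.0808 (0.612 to 0.836) in control (SD, n = 5 each), with 4 EA libraries below every control library and EA 1 above control 4. Vegfa over the sum of Flt1 and Kdr was 2.23 ± 0.516 in EA and 2.05 ± 0.467 in control. Vegfb over Flt1 was 0.524 ± 0.172 in EA and 0.541 ± 0.138 in control. These ligand-to-receptor ratios overlapped almost fully. The angiopoietin balance, Angpt1 over Angpt2, was 1.14 ± 0.301 in EA and 0.978 ± 0.244 in control. Their sum over Tek was 0.358 ± 0.0722 in EA and 0.356 ± 0.135 in control. Flt1 over Kdr was 8.52 ± 4.05 in EA and 7.55 ± 2.02 in control. Ptprb over Tek had nearly the same mean in both groups and a different spread: 0.532 ± 0.104 (0.417 to 0.693) in EA and 0.523 ± 0.0174 (0.5002 to 0.5467) in control, and the difference in spread was not tested.

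**Figure D3:**
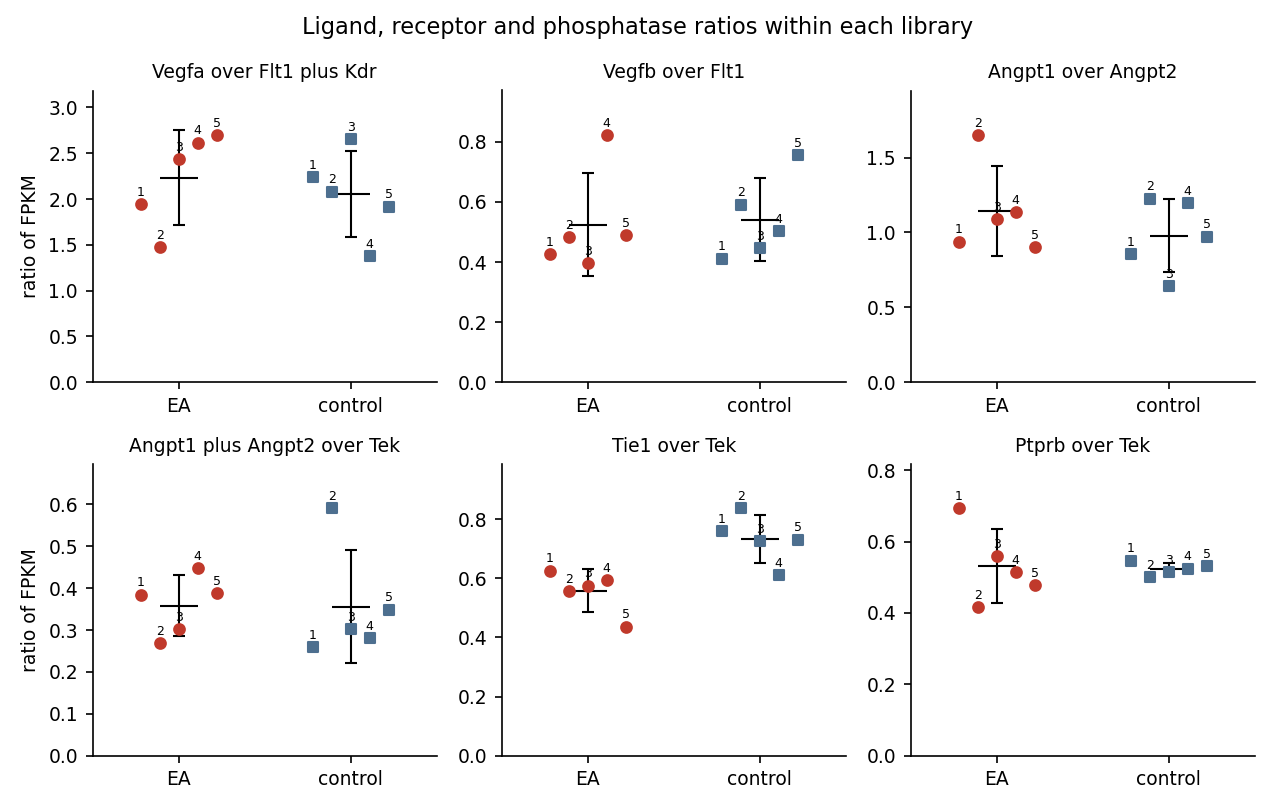
Ratios of FPKM between members within a library (vertical axis, no unit, from 0) in EA and control rats, 5 libraries each, with the mean and SD. Tie1 over Tek is 0.436 to 0.626 in EA and 0.612 to 0.836 in control, and the groups overlap in the other ratios too. Ptprb over Tek spans 0.417 to 0.693 in EA and a narrower 0.5002 to 0.5467 in control.

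The receptors are endothelial genes, so markers of the vessel wall and of other cell types were set beside them. Of 17 endothelial markers tested, 16 had a log2 fold change below 0, with a median of -0.15 beside -0.0018 over all genes, and 3 were lower in EA at an unadjusted p under 0.05 (7.15% of all genes). These were the transcription factors Sox18 (-0.98) and Erg (-0.50) and von Willebrand factor, Vwf (-0.50), and while 0 passed the edgeR adjusted threshold, DESeq2 called all 3 (DESeq2 adjusted p = 3.80e-05 for Sox18, 8.34e-04 for Vwf and 0.0253 for Erg). Sox18 and Vwf, like Tie1, were named by the study on these libraries. The markers summed to 179 to 210.5 FPKM in EA libraries and 212.3 to 240.7 FPKM in control libraries, without overlap, and to 192.5 to 210.5 FPKM in the EA libraries other than EA 2 and EA 5. Of the defining markers, Cldn5 was listed at 0 in all 5 EA libraries and averaged 0.309 FPKM in control libraries, where 3 of 5 were also listed at 0. Cldn5 is a major gene of brain endothelium, so its value here cannot be read as a level of the gene in either group, and why it was so low was not tested. Pericyte markers had fold changes below 0 for 10 of 10 genes, 4 of them at an unadjusted p under 0.05, and summed to 143.8 to 159.9 FPKM in EA and 155.2 to 174.5 FPKM in control. Arterial smooth muscle markers overlapped, at 50.07 to 74.73 FPKM in EA and 51.56 to 71.75 FPKM in control. Red blood cell genes summed to 6.289 to 15.94 FPKM in EA and 7.682 to 43.01 FPKM in control, with 3 of 3 genes below 0 and 2 at an unadjusted p under 0.05. Lower values were not limited to vessel and blood genes. The markers of oligodendrocytes, the myelin-forming cells, had fold changes below 0 for 8 of 8 genes, 3 of them at an unadjusted p under 0.05, with a median of -0.13, and summed to 896.7 to 1156 FPKM in EA and 1011 to 1455 FPKM in control. Nor were lower values shared by every cell type. Neuron markers had fold changes above 0 for 7 of 10 genes, with a median of 0.03. Of these genes 2 were higher in EA at an unadjusted p under 0.05 and 0 were lower. Fold changes lay below 0 for 6 of 9 microglia markers and 6 of 10 astrocyte markers, with 1 of each list lower at that threshold. In bulk tissue, fewer cells of a type and less RNA per cell cannot be told apart. The part of vessel content in the result for Tie1 and Flt1 was not tested.

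As a percentage of the summed endothelial markers in the same library, Tie1 was 2.69 ± 0.287 (2.40 to 3.17) in EA and 3.29 ± 0.177 (3.04 to 3.46) in control (SD, n = 5 each), with 4 EA libraries below every control library. The same percentage for Flt1 was 9.19 ± 1.15 (7.73 to 10.7) in EA and 9.47 ± 0.290 (9.07 to 9.86) in control. For Flt1, 3 EA libraries lay below every control library and EA 3 lay above every control library. The difference between Tie1 and Flt1 in this percentage was not tested.

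Across the 10 libraries, 20 relations were computed between the log2 CPM of a member and the mean log2 CPM of the endothelial or the astrocyte markers, with two-sided permutation tests and Benjamini-Hochberg adjustment over the 20. Tie1 followed the endothelial markers most closely. Pearson's r was 0.95 (permutation p = 3e-05, adjusted 0.0006) and Spearman's rho 0.96 (permutation p = 5e-05, adjusted 0.001). Its r was 0.94 without EA 2 and EA 5, the libraries farthest from the median of the markers, and 0.86 after the group means were subtracted. The markers include Sox18, Erg and Vwf, which separated the groups as Tie1 did. The r of Tie1 without these genes was not computed. Flt1 had an r of 0.75 with these markers (permutation p = 0.0133, adjusted 0.0667) and a rho of 0.73 (permutation p = 0.0196, adjusted 0.131), and r was 0.60 without the same libraries and 0.50 after the group means were subtracted. For Flt1 the adjusted permutation p was 0.0212 without EA 4. For Kdr r was 0.23 (permutation p = 0.515, adjusted 0.718) over all libraries, 0.60 without EA 2 and EA 5, the same as for Flt1, and -0.08 after the group means were subtracted. Leaving out single libraries put it between 0.0018 and 0.65.

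Ptprb was related to the mean of the astrocyte markers and not detectably to that of the endothelial ones (r = 0.38, permutation p = 0.284, adjusted 0.681). The difference between these relations was not tested. With astrocyte markers its r was 0.84 (permutation p = 0.00195, adjusted 0.0195) and its rho 0.66 (permutation p = 0.0427, adjusted 0.213). Its r was 0.69 without EA 2 and EA 3, the libraries farthest from the median of these markers, and the adjusted permutation p was 0.167 without EA 2 and 0.0974 without control 2, while r stayed between 0.73 and 0.91 whichever single library was left out. Tek had an r of 0.76 with astrocyte markers (permutation p = 0.00969, adjusted 0.0646) and a rho of 0.83 (permutation p = 0.00495, adjusted 0.0495), with r 0.67 without EA 2 and EA 3. For Tek the adjusted permutation p of r was 0.0242 without EA 1 and 0.0221 without control 1. Astrocyte markers summed to 2408 to 2983 FPKM in EA libraries and 2661 to 2973 FPKM in control libraries. They varied unequally within a group. In EA libraries Aqp4 was at 80.7 ± 61.5 FPKM and Slc1a3 at 163 ± 103 FPKM, against 1120 ± 54.2 FPKM for S100b (SD, n = 5). In control libraries these were 51.5 ± 44.5, 162 ± 91.4 and 1210 ± 28.6 FPKM. Whether a few variable markers carried the relations of Ptprb and Tek was not tested. The libraries with high misc_RNA (EA 2 and EA 5) were EA alone, so no relation could be computed within them, and without them r of Ptprb with astrocyte markers was 0.75 (permutation p adjusted to 0.297).

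**Figure D4:**
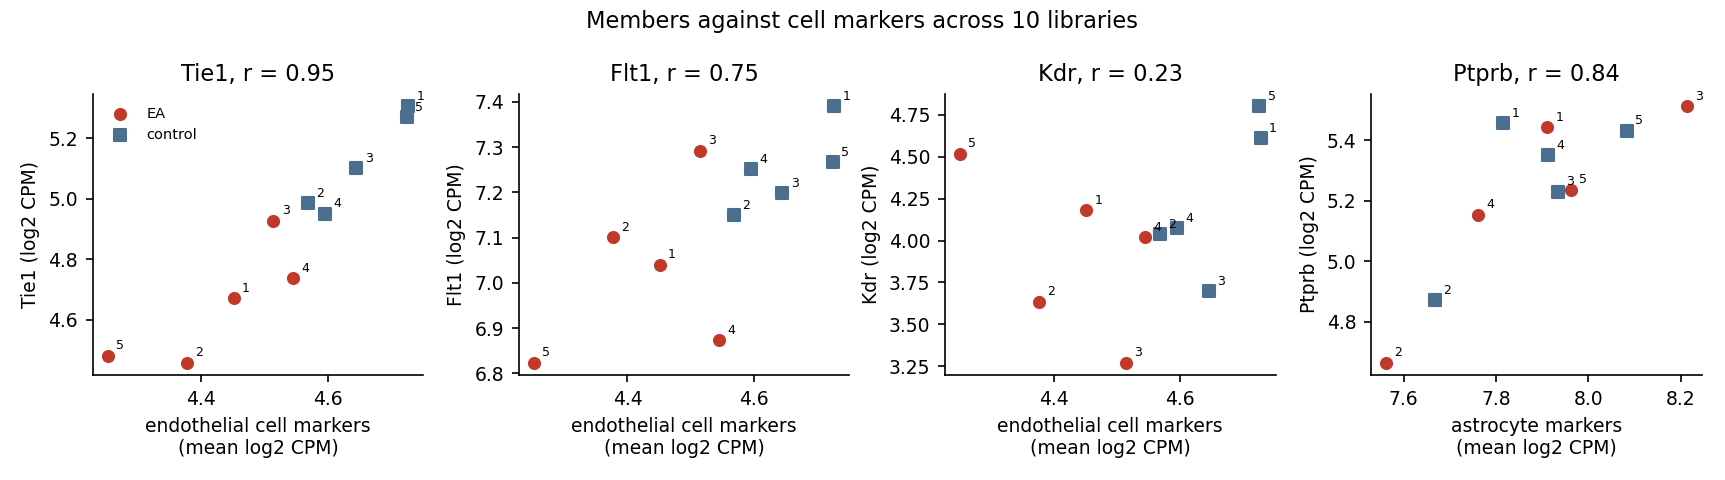
Level of Tie1, Flt1 and Kdr against the endothelial markers and of Ptprb against the astrocyte markers (log2 CPM on the vertical axis, mean log2 CPM of the markers on the horizontal axis), 1 point per library with its replicate number. Tie1 follows the endothelial markers in both groups (r = 0.95) and Flt1 does so less closely (r = 0.75).

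Among the 45 pairs of members, Flt1 and Tie1 were most alike (r = 0.79, permutation p = 0.00629, adjusted 0.266 over the 45; rho = 0.76, permutation p = 0.0143, adjusted 0.322), and r was 0.79 without the 2 farthest libraries. Tek and Ptprb, the receptor and its phosphatase, came next (r = 0.75, permutation p = 0.0118, adjusted 0.266; rho = 0.77, permutation p = 0.0129, adjusted 0.322), with r 0.29 without the 2 farthest libraries. No pair passed the adjusted threshold. Of 13800 other genes, the 5 most like the mean standardised level of Flt1, Kdr, Tie1, Tek and Ptprb were Adgrf5 (r = 0.94), an adhesion receptor of endothelium, Mutyh (0.90), a DNA repair glycosylase, Sapcd1 (0.89), Mtdh (0.88) and Bin2 (0.88). Adgrf5 had a log2 fold change of -0.16 (edgeR adjusted p = 0.350). The 5 most like Vegfa were Cmtm7 (0.94), AABR07005004 (0.94), Mfap3l (0.89), Nek9 (0.88) and Sox2 (0.88). These coefficients are the top of a ranking over 10 libraries and carry no test.

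The rest of the pathway did not move in 1 direction. Of the other ligands of both families, Vegfc (0.12, edgeR adjusted p = 0.832) and Pgf (0.01) were tested, and Angpt4 and Vegfd were below the filter, with Angpt4 at 0.448 FPKM in EA and 0.346 FPKM in control and Vegfd at 0.178 FPKM in EA and 0.135 FPKM in control. Among 10 co-receptors and receptor partners the median log2 fold change was 0.02. The co-receptors Nrp1 (0.04) and Nrp2 (0.17) and the junction cadherin Cdh5 (-0.03) were not past the unadjusted threshold. The proteoglycan Gpc1 was the 1 gene lower in EA at an unadjusted p under 0.05 (-0.15, edgeR adjusted p = 0.332), beside 7.15% of all genes.

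Of 32 signalling genes that act below the receptors, 2 were lower in EA at an unadjusted p under 0.05 (7.15% of all genes). At that threshold 4 were higher (6.59% of all genes), and the median of the list was 0.03. The lower ones were the phosphatase Ptpn11 (-0.13, edgeR adjusted p = 0.203) and the kinase Map2k2 (-0.20, edgeR adjusted p = 0.233). Among the higher ones were the kinases Fyn (0.14, edgeR adjusted p = 0.337) and Map2k1 (0.10, edgeR adjusted p = 0.344) and the small GTPase Cdc42 (0.10, edgeR adjusted p = 0.330). Most of these genes are used by every cell type of the cortex. Nos3, the endothelial nitric oxide synthase, had a log2 fold change of -0.21 (edgeR adjusted p = 0.661).

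Vegfa is a classical target of the hypoxia-inducible factors, and the genes of oxygen sensing and of the hypoxia response were examined beside it. Of 10 oxygen-sensing genes 2 were lower in EA at an unadjusted p under 0.05 (7.15% of all genes). They were the asparaginyl hydroxylase Hif1an (-0.27, edgeR adjusted p = 0.274) and the prolyl hydroxylase Egln2 (-0.15, edgeR adjusted p = 0.342). Epas1, the factor subunit prominent in endothelium, stood at -0.15 (edgeR adjusted p = 0.364) and Hif1a at 0.11 (edgeR adjusted p = 0.387), with a median of -0.07 for the list. Of 15 hypoxia-induced genes, 0 were lower and 2 higher at an unadjusted p under 0.05 (6.59% of all genes were higher), with a median of 0.05. P4ha1, a prolyl hydroxylase of collagen, averaged 31.1 ± 2.68 FPKM in EA and 25.8 ± 0.745 FPKM in control (SD, n = 5 each), a log2 fold change of 0.29 (standard error 0.06, edgeR adjusted p = 0.155, DESeq2 adjusted p = 0.00408). The histone demethylase Kdm3a had 0.15 (edgeR adjusted p = 0.244). The glucose transporter Slc2a1, which is also strong in brain endothelium, was at -0.15 (edgeR adjusted p = 0.408) and Hk2, a hexokinase, at -0.21 (edgeR adjusted p = 0.391).

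Of 9 tested genes that VEGF induces in endothelium, 1 was lower at an unadjusted p under 0.05 (7.15% of all genes). This was the peptide ligand Apln (-0.17, edgeR adjusted p = 0.332). At that threshold 0 of the list were higher (6.59% of all genes), with a median of 0.00. The Notch ligand Dll4 stood at 0.18, and the tip cell gene Esm1 was listed at 0 in EA and at a mean of 0.00789 FPKM in control. Over these 6 lists edgeR called 0 genes at the adjusted threshold and DESeq2 called 1, P4ha1.

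**Figure D5:**
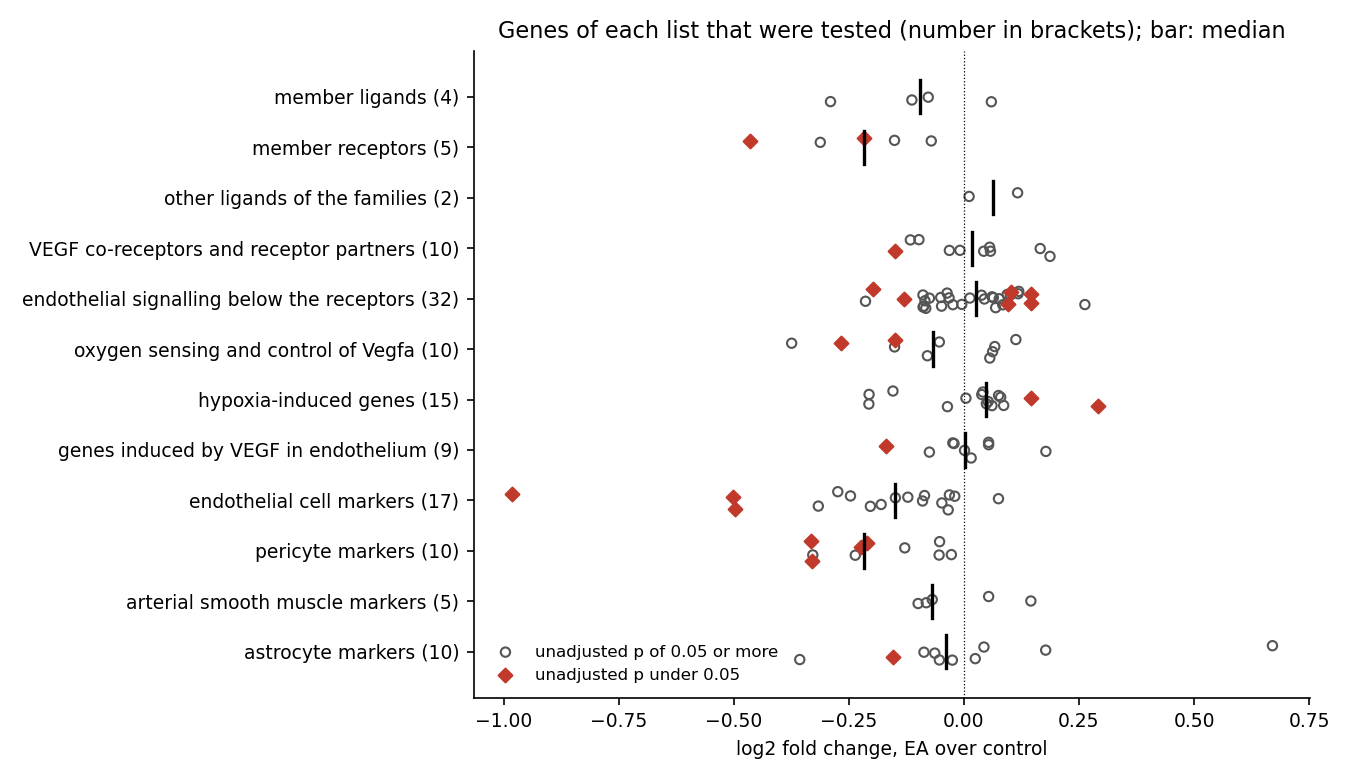
Log2 fold change, EA over control (horizontal axis), of every tested gene in the member groups, the other pathway lists and 4 marker lists, 1 point per gene (red where the unadjusted p is under 0.05) with the median of each list as a bar. The receptor median is at -0.22 and the endothelial marker median at -0.15, while the co-receptor, signalling and VEGF-induced lists have medians of 0.02, 0.03 and 0.00.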

How the data were processed

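Poly(A) RNA of rat cortex (5 EA, 5 control rats) was sequenced from both ends. The authors deposited 1 table with a read count and an FPKM value per gene and library. The submitters' processing notes name HISAT2 2.0, StringTie 1.3.0, Bowtie 0.12.2 and build Rnor_6.0; how the counts were drawn is not given in the sources used here. The deposited FPKM values (scaled to transcript length and mapped fragments) write 0 as 1e-04. A gene was tested if 5 or more of the 10 libraries reached an FPKM of 0.5. The deposited counts were fitted in edgeR 4.0.16 (R 4.3.3) by quasi-likelihood after TMM scaling, with Benjamini-Hochberg adjustment over 15169 genes. Calls needed an adjusted p below 0.05 with more than a 1.2-fold difference. FPKM values served for levels and ratios, TMM-scaled CPM for relations between libraries. Relations were tested with 100000 permutations in numpy 2.4.6, with ranks from scipy 1.17.1.

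Alternatives were DESeq2 1.42.0, limma 3.58.1 on log2(FPKM + 0.1) or log2(FPKM + 1), other scalings and filters, the replicate number as a block, and libraries left out. The 10 members and all lists were chosen with earlier results of these data known. All members are named, and from the other lists up to 4 genes with the lowest p, further ligands, genes past the unadjusted threshold, and single well-known genes chosen after their values were seen. A signalling gene is not reported here by name. P-values of the group comparison rest on the spread between libraries, moderated with information from other genes. Permutation p-values came from shuffling all 10 libraries across both groups, so a difference between EA and control shared by a member and the markers enters them. The r after subtracting group means carries no p. The code was tested on simulated data. The promoter search used the RefSeq table of GRCr8.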

Additional observations from a re-analysis of the deposited data

Results flagged for a closer look

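The FPKM of Vegfb in EA 4 was 13.38, against 7.707 to 9.024 in the other 4 EA libraries, a gap large enough to stand out from a group of 5. The ratio of Vegfb over Flt1 stood out in the same library, at 0.8228 against 0.397 to 0.4898 in the other EA libraries. The sum of Angpt1 and Angpt2 over Tek was 0.5901 in control 2, against 0.2587 to 0.3482 in the other control libraries. Chance alone makes about 1 in 20 groups show such a gap, and 3 of 34 groups examined did.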

How the results depend on the processing

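The log2 fold changes of Tie1, Flt1, Vegfb, Kdr, Flt4 and Tek kept their sign under every alternative run, with sizes that moved: leaving out single libraries put Flt4 between -0.35 (without EA 2) and -0.0011 (without control 3), Kdr between -0.48 (without EA 5) and -0.15 (without control 5), Tek between -0.14 (without control 2) and -0.022 (without EA 2), Vegfb between -0.46 and -0.13, Flt1 between -0.28 and -0.17 and Tie1 between -0.53 and -0.41. Of all genes, edgeR called 3 higher in EA and 0 lower, DESeq2 77 higher and 91 lower, limma with 0.1 added to FPKM 1 higher and 1 lower, and limma with 1 added 3 higher and 1 lower. Without EA 2 and EA 5 there were 2 higher and 2 lower calls, and leaving out single libraries gave 1 to 5 higher and 0 to 1 lower. Members called numbered 0, with 1 by DESeq2 (Tie1, -0.46) and 0 without any single library. Members lower at an unadjusted p under 0.05 numbered 2, 1 without EA 2 and EA 5, and 1 to 2 without single libraries.

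Without EA 2 and EA 5, 3 EA libraries remain. Angpt2 was then at 0.0081 and Ptprb at 0.10. The relations past the adjusted threshold numbered 2 in all libraries, 1 without EA 2 and EA 5, and 1 to 3 without single libraries. Without EA 2 and EA 5, r with endothelial markers was -0.012 for Angpt2 and -0.095 for Flt4, and with astrocyte markers -0.31 for Angpt2, -0.27 for Kdr and 0.083 for Flt4. The cause was not tested.

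Leaving out single libraries moved the log2 fold change of Vegfa between -0.23 and 0.00060, of Angpt1 between -0.047 and 0.26, of Angpt2 between -0.20 and 0.092, and of Ptprb between -0.14 and 0.060. With endothelial markers r ranged between -0.39 and 0.54 for Angpt2 and between -0.41 and 0.50 for Flt4. With astrocyte markers it ranged between -0.46 and 0.12 for Vegfb, -0.28 and 0.26 for Angpt1, -0.22 and 0.60 for Angpt2 and -0.23 and 0.62 for Kdr.

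Taken over all genes tested, same-numbered EA and control libraries did not deviate together (correlations -0.0026 to 0.0605). Such correlations cannot show whether the numbers pair the libraries for single genes. For Kdr the replicate numbers fell in the same order in both groups, and each EA library lay below the control library of its number. How many of all genes do so was not computed. What the numbers stand for is not given. The fit with the replicate number as a block called 0 genes, with Tie1 at -0.47 (edgeR adjusted p = 0.227) and Kdr at an unadjusted edgeR p of 0.00416. Angpt1, Angpt2 and Flt4 had the fewest counts, which limits what could be detected for them.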
